A study of Mesocricetus auratus with 6 samples.

Results

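The 10 genes described here carry signals of the interleukin-6 family of cytokines through the receptor chain gp130 to the transcription factor STAT3. They are Lif, Il6 and Il11, which encode ligands, Lifr, Il6ra, Il6st, Il11ra1 and Osmr, which encode receptor chains, and Stat3 and its feedback inhibitor Socs3. A probe set (the group of short probes on the array that together give 1 value for a transcript) was taken when the platform annotation gave it exactly 1 gene symbol and that symbol was one of the 10. This gave 20 probe sets for 9 genes, of 22626 probe sets tested and 12393 genes named by a single symbol. Il11ra1 had no probe set under this rule and was not analysed here.

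The tissue was uterus of pregnant Syrian golden hamsters (Mesocricetus auratus) that had received no treatment and were at day 5 of pregnancy, hybridised to an Affymetrix mouse array. There were 3 arrays of implantation sites, the segments of uterine wall that hold an attached embryo, and 3 arrays of interimplantation sites, the segments between them without an embryo. The RNA was isolated as 3 sets, each from another animal, per the series' design text, and neither the strain nor the age of the animals is given in the sources used here. Which arrays share an animal is not stated either, so each animal may have given tissue to both groups, and the fit treats the 6 arrays as independent. The question was how transcript levels at the place of a blastocyst compare with those of the uterine wall beside it.

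Cytokines of this family bind a receptor chain of their own and then recruit gp130, the product of Il6st. LIF uses the LIF receptor (Lifr), IL-6 uses the IL-6 receptor alpha chain (Il6ra) and IL-11 its own alpha chain. Kinases of the JAK family bound to these receptors phosphorylate STAT3, which enters the nucleus and induces, among others, Socs3, whose product binds gp130 and JAKs and shuts the signal down. In the mouse, LIF from uterine glands is needed for implantation, STAT3 in the uterus is needed for attachment, and the IL-11 receptor is needed for the decidua, the stromal tissue that forms around the embryo.

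Values are log2 signals from RMA (robust multi-array averaging), which makes the arrays' distributions alike, so a difference is measured against the common level of the array. The array medians ran from 4.55 to 4.57. Interimplantation array 1 stood apart from the other arrays of its group on the second principal component (−20.7, against 11.6 and 7.67). The probes were designed on mouse sequence, and mismatches with hamster RNA can lower a signal and shrink a difference. Only 3 of the 20 probe sets (1 each of Il6ra, Stat3 and Socs3) had a mean above the brightest of 27 control probe sets for Bacillus genes (5.79), which match no hamster transcript. Such controls can be added to a sample, so 5.79 is a strict mark and not a measured floor. The median of those controls was 2.68, and 18 of the 20 lay above it. A small difference in a dim probe set therefore does not show an unchanged gene.

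None of the 20 probe sets was called at an adjusted p under 0.05 (limma, Benjamini-Hochberg over all 22626 probe sets), where 2.31% of all probe sets were called. Of the 20 differences, given throughout as implantation minus interimplantation, 10 were positive and 10 negative. Their median was −0.018, beside −0.020 over all probe sets. At an unadjusted p under 0.05 there were 3 of 20 (15%), 1 each of Lif, Il6ra and Socs3, where all probe sets gave 14.0%. The groups did not overlap in 4 of 20 (20%), where all probe sets gave 19.3%. Both shares were close to those of the whole table. For 19 of the 20 probe sets the 95% interval of the difference lay within 1.5-fold in either direction. The share over all probe sets was not counted, so this does not set these genes apart from the rest of the table.

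**Figure D1:**
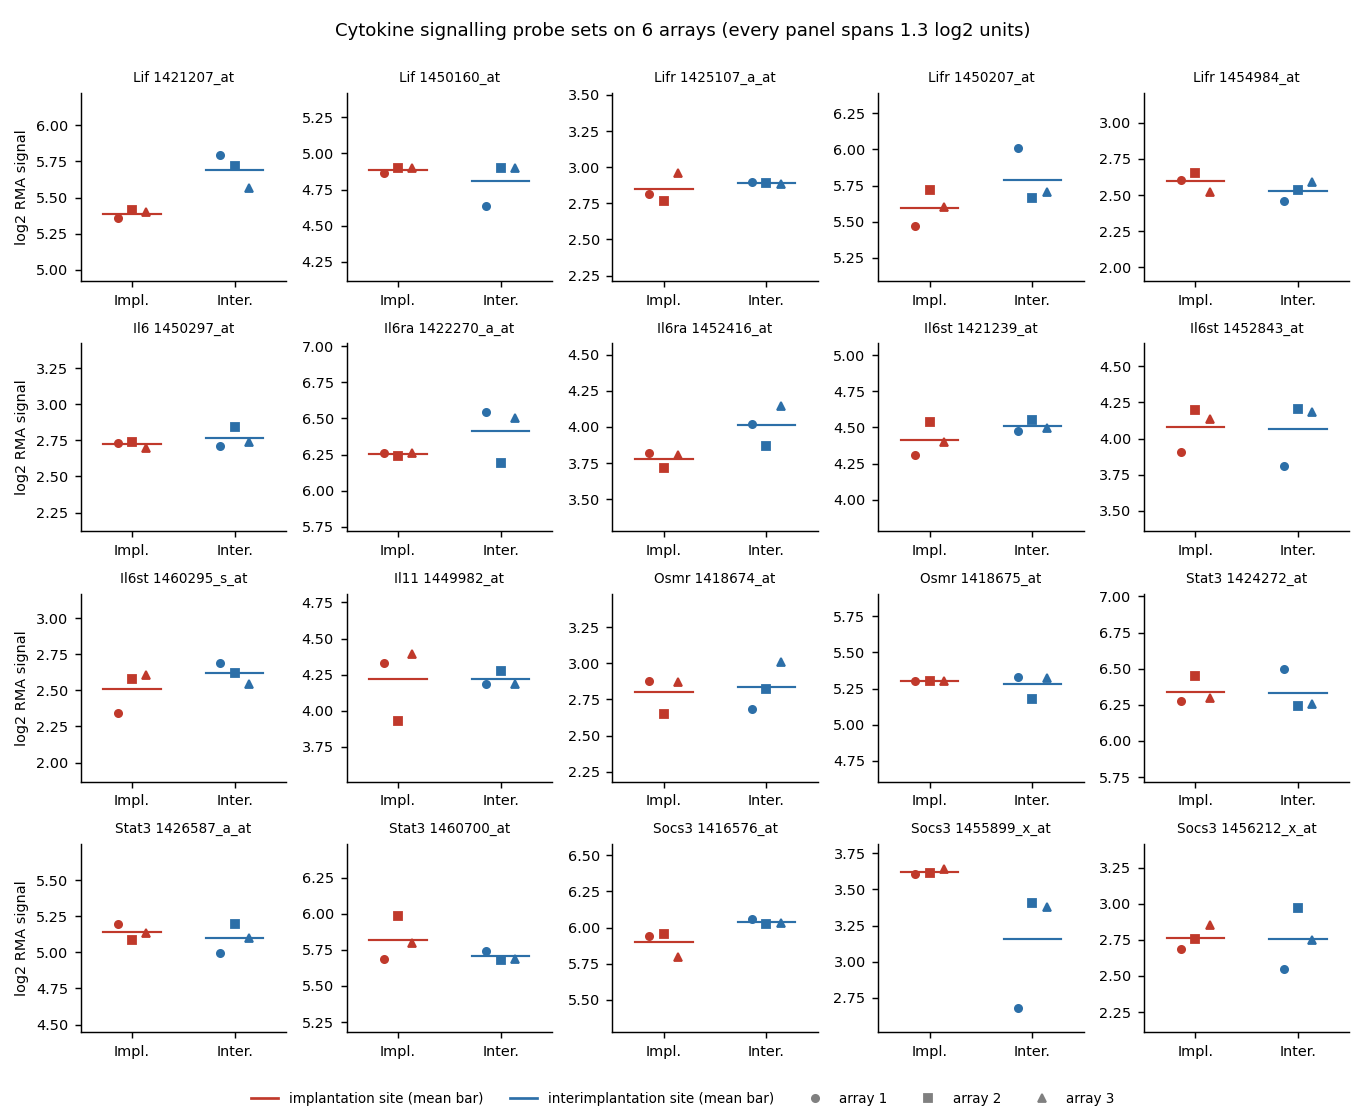
Log2 RMA signal of each of the 20 probe sets on the 3 implantation arrays (red, left) and the 3 interimplantation arrays (blue, right), with a bar at each group's mean and a marker shape for each array number. Each panel has its own level but the same span. The groups are apart in 4 panels: 1 of Lif, 1 of Il6ra and 2 of Socs3.

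Lif, the ligand that mouse uterine glands release before attachment, was measured by 2 probe sets that went different ways. Probe set 1421207_at read 5.36, 5.41 and 5.40 at the implantation sites, against 5.79, 5.72 and 5.56 at the interimplantation sites. Every implantation array lay below every interimplantation array, and the implantation arrays were closer together. The means were 5.39 ± 0.03 at the implantation sites and 5.69 ± 0.12 at the interimplantation sites (SD, n = 3 each), a difference of −0.30 (SE 0.09, 95% interval −0.49 to −0.11), or 1.23-fold. This was the smallest p of the 20 probe sets (limma, unadjusted p = 0.00446), and it was not called after adjustment (adjusted p = 0.112). It was not called under any alternative run (adjusted p from 0.0947 to 0.677).

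The other Lif probe set, 1450160_at, read 4.86, 4.90 and 4.90 at the implantation sites, against 4.63, 4.90 and 4.90 at the interimplantation sites. All arrays but interimplantation array 1 lay together. The difference was 0.08 (95% interval −0.12 to 0.28, limma adjusted p = 0.781), and −0.012 without that array. Across the 6 arrays the 2 Lif probe sets correlated at −0.62, a description over arrays that share 1 normalization.

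Il11, whose product acts on decidualising stroma in the mouse, had 1 probe set (1449982_at) and the smallest absolute difference of the 20. It read 4.33, 3.93 and 4.39 at the implantation sites, against 4.19, 4.28 and 4.19 at the interimplantation sites. Implantation array 2 was the lowest and implantation array 3 the highest of all 6 arrays. The means were 4.22 ± 0.25 at the implantation sites and 4.22 ± 0.05 at the interimplantation sites (SD, n = 3 each), and the interval of the difference ran from −0.25 to 0.25. Il6, an inflammatory ligand that also drives the acute phase response of the liver, was measured by probe set 1450297_at, which read 2.73, 2.74 and 2.70 at the implantation sites, against 2.71, 2.84 and 2.74 at the interimplantation sites. Its difference was −0.04 (95% interval −0.21 to 0.13), and the groups overlapped.

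Among the receptor chains, Il6ra was the gene whose probe sets were both negative. Probe set 1452416_at read 3.82, 3.71 and 3.81 at the implantation sites, against 4.02, 3.87 and 4.14 at the interimplantation sites. The groups were apart, by a narrow gap between implantation array 1 and interimplantation array 2. The difference was −0.23 (SE 0.09, 95% interval −0.43 to −0.03), with an unadjusted p of 0.0274 and an adjusted p of 0.274 in limma. The brighter probe set 1422270_a_at read 6.26, 6.24 and 6.26 at the implantation sites, against 6.55, 6.19 and 6.50 at the interimplantation sites. Interimplantation array 2 lay below all implantation arrays, so the groups overlapped, and the difference was −0.16 (adjusted p = 0.534). The pair of Il6ra probe sets correlated at 0.85 over the 6 arrays.

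Il6st, the gp130 chain that LIF, IL-6, IL-11 and oncostatin M receptors share, had 3 probe sets, at −0.11 (1460295_s_at), −0.09 (1421239_at) and 0.01 (1452843_at). Probe set 1421239_at read 4.31, 4.54 and 4.40 at the implantation sites, against 4.47, 4.55 and 4.50 at the interimplantation sites. Probe set 1460295_s_at, whose suffix marks probes shared by several transcripts, read 2.35, 2.58 and 2.61 at the implantation sites, against 2.69, 2.62 and 2.54 at the interimplantation sites. Probe set 1452843_at read 3.91, 4.20 and 4.13 at the implantation sites, against 3.81, 4.21 and 4.18 at the interimplantation sites. The groups overlapped in all 3 Il6st probe sets, and their adjusted p-values ran from 0.677 to 0.976 (limma).

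Lifr, the chain specific to LIF and its close relatives, had differences of −0.19 (1450207_at), −0.04 (1425107_a_at) and 0.07 (1454984_at). The first of these probe sets read 5.47, 5.72 and 5.60 at the implantation sites, against 6.01, 5.66 and 5.70 at the interimplantation sites. Interimplantation array 1 was the highest, and without it the difference was −0.086. The dimmer Lifr probe set 1425107_a_at read 2.81, 2.77 and 2.96 at the implantation sites, against 2.90, 2.89 and 2.88 at the interimplantation sites. Probe set 1454984_at read 2.61, 2.66 and 2.52 at the implantation sites, against 2.46, 2.53 and 2.59 at the interimplantation sites. The groups overlapped in all 3.

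Osmr, the chain for oncostatin M, was at −0.04 (1418674_at) and 0.02 (1418675_at), with overlap in both. Probe set 1418675_at read 5.30, 5.31 and 5.31 at the implantation sites, against 5.33, 5.18 and 5.32 at the interimplantation sites. Probe set 1418674_at read 2.88, 2.65 and 2.87 at the implantation sites, against 2.68, 2.82 and 3.01 at the interimplantation sites.

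Stat3 had 3 probe sets, all with a positive difference and none called. Probe set 1460700_at had the largest, 0.12 (95% interval −0.08 to 0.32, limma adjusted p = 0.640). It read 5.69, 5.98 and 5.80 at the implantation sites, against 5.74, 5.68 and 5.69 at the interimplantation sites. Implantation arrays 2 and 3 were the highest, and implantation array 1 lay among the interimplantation arrays. The difference was 0.038 without implantation array 2 and 0.18 without implantation array 1. The brightest Stat3 probe set, 1424272_at, read 6.27, 6.45 and 6.30 at the implantation sites, against 6.50, 6.24 and 6.25 at the interimplantation sites, a difference of 0.01. The third, 1426587_a_at, was at 0.04. It read 5.20, 5.08 and 5.14 at the implantation sites, against 5.00, 5.20 and 5.10 at the interimplantation sites. Its values over the 6 arrays correlated negatively with those of 1424272_at (−0.84), although both differences were positive. Activity of the STAT3 protein depends on its phosphorylation, which an array of transcripts does not measure.

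Socs3, a transcript that STAT3 induces, gave the largest difference of the 20 in 1 probe set and a negative one in another. Probe set 1455899_x_at read 3.61, 3.61 and 3.64 at the implantation sites, against 2.68, 3.41 and 3.38 at the interimplantation sites. The groups were apart, and interimplantation array 1 lay far below the other arrays, at the median level of the Bacillus controls (2.68). The means were 3.62 ± 0.02 at the implantation sites and 3.16 ± 0.41 at the interimplantation sites (SD, n = 3 each), a difference of 0.46 (SE 0.16, 95% interval 0.12 to 0.81, limma unadjusted p = 0.0121, adjusted p = 0.183). Without interimplantation array 1 the difference was 0.23 (adjusted p = 0.207). The suffix _x_at marks a probe set in which some probes also match other transcripts.

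Probe set 1416576_at of Socs3, which is not of that kind, read 5.94, 5.95 and 5.80 at the implantation sites, against 6.06, 6.02 and 6.03 at the interimplantation sites. Here every implantation array lay below every interimplantation array, and the difference was −0.14 (95% interval −0.32 to 0.04, limma adjusted p = 0.501). The remaining Socs3 probe set, 1456212_x_at, was at 0.0050. It read 2.68, 2.75 and 2.85 at the implantation sites, against 2.55, 2.97 and 2.75 at the interimplantation sites. Of the 7 genes with several probe sets, 5 (Lif, Lifr, Il6st, Osmr and Socs3) had probe sets on both sides of 0, and 2 (Il6ra and Stat3) on 1 side.

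**Figure D2:**
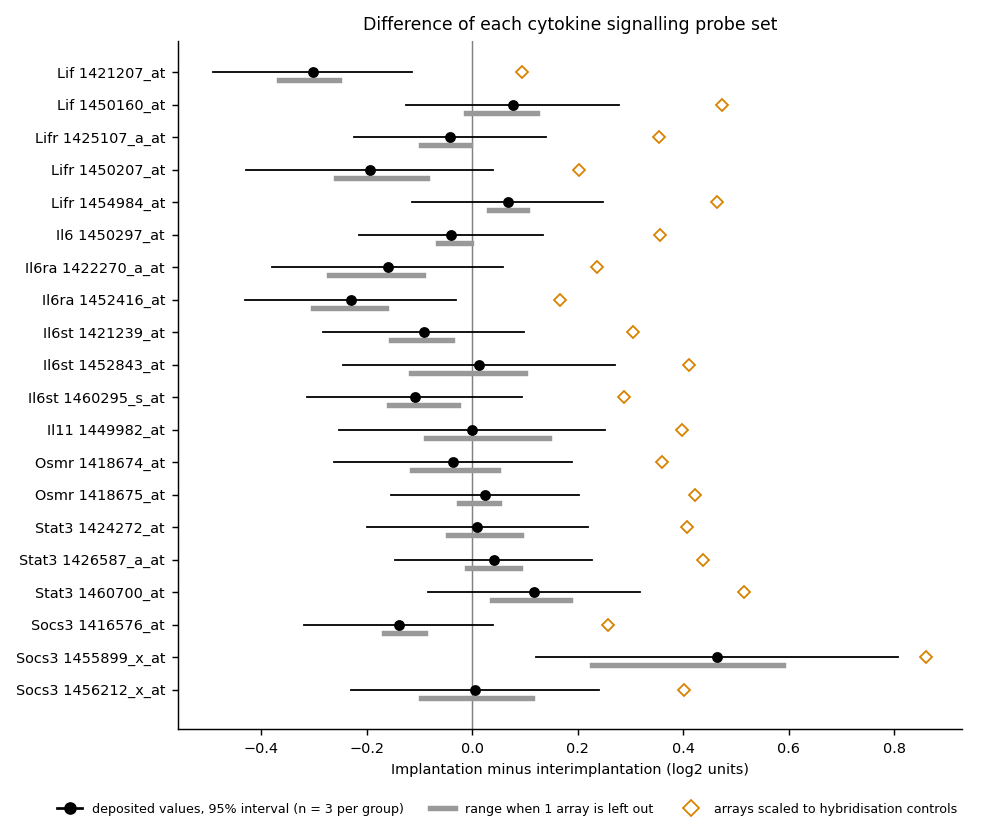
Implantation minus interimplantation difference in log2 units for each of the 20 probe sets: black points with the 95% interval of the limma fit, grey bars for the range when 1 array is left out, and open diamonds with every array scaled to its hybridisation controls. The black intervals exclude 0 for 3 probe sets before adjustment, and all 20 diamonds lie above 0, all at the same distance of 0.40 from their black points.

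The zero point of these differences depends on what the arrays are scaled to. The hybridisation controls, bacterial and phage transcripts added to the hybridisation, were dimmer on the implantation arrays (6.64 ± 0.17) than on the interimplantation arrays (7.03 ± 0.27; SD, n = 3 each), with overlap. Scaling each array to them adds the same 0.40 to every difference of the table, so the median over all 22626 was 0.38 in place of −0.02 and 98.6% of all differences were above 0. All 20 differences of the cytokine genes were then positive (0.095 to 0.86) by the size of that shift, which shows nothing about these genes. Their place relative to the median of the table cannot change, and 10 of the 20 lay above it and 10 below with either scaling. Socs3 1455899_x_at was then called (0.86, limma adjusted p = 0.00529), the 1 call of the 20, where 3.38% of all probe sets were called with that scaling. Lif 1421207_at had the lowest value, 0.095.

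The other genes of the pathway were read from lists. These held further ligands, receptors, kinases and STATs, and negative regulators. They also held genes that STAT3 is known to induce, and uterine genes linked to LIF or IL-11 in the mouse. Of their 154 probe sets, for 88 of 95 listed genes, 1 was called higher and 5 lower, with a median difference of −0.022. The shares were 3.90% called, beside 2.31% of all probe sets, and 14.3% at an unadjusted p under 0.05, beside 14.0%. The count was 1, 3 and 2 probe sets when implantation array 1, 2 or 3 was left out, and 9, 4 and 4 when interimplantation array 1, 2 or 3 was left out. The calls over the whole table moved likewise, to between 0.906% and 3.23% of all probe sets. Without probe sets shared by several transcripts the count was 3. With scaling to the hybridisation controls 5 probe sets (3.25%) were higher and 0 lower, where 752 were higher and 13 lower over the whole table.

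No probe set of the further ligands (5 probe sets) or receptors (4) was called. Ctf1, the ligand cardiotrophin-1, was at −0.18 (limma adjusted p = 0.464), and the probe sets of Ebi3, a subunit of IL-27, and Clcf1, another ligand of the family, were all negative as well. The receptor chains Cntfr, Il27ra and Il31ra lay between −0.11 and 0.07.

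Of the 24 probe sets of kinases, adaptors and other STATs, 1 was called (4.17%, beside 2.31% of all probe sets). Jak1, the kinase that gp130 receptors depend on most, fell in probe set 1433803_at, which read 4.69, 4.79 and 4.66 at the implantation sites, against 5.09, 5.14 and 4.98 at the interimplantation sites. The groups were apart and the difference was −0.36 (SE 0.08, limma adjusted p = 0.0492), close to the threshold. The call remained with array weights and was lost under the other 11 alternatives that kept this probe set, among them every left-out array. The difference itself stayed between −0.32 and −0.41 under all of them but the control scaling, with its constant shift (0.036). The other Jak1 probe sets were at 0.22 (adjusted p = 0.319) and 0.02, so the 3 went different ways. Stat5b, a STAT of prolactin and growth hormone signals, had −0.20 and 0.03 (adjusted p = 0.274 and 0.912), and Stat2, of interferon signals, 0.19 and 0.12 (adjusted p = 0.493 and 0.569).

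Of the 29 probe sets of other negative regulators, 1 was called (3.45%, beside 2.31% of all probe sets). It belonged to Socs2, an inhibitor best known from growth hormone signalling. Probe set 1449109_at of Socs2 read 3.17, 3.31 and 3.32 at the implantation sites, against 3.62, 3.90 and 3.65 at the interimplantation sites. It fell by 0.45 on the log2 scale (SE 0.10, limma adjusted p = 0.0302). The second Socs2 probe set, 1418507_s_at, read 3.00, 3.24 and 3.02 at the implantation sites, against 3.38, 3.62 and 3.44 at the interimplantation sites. The groups were apart in both, and the second was at −0.39 (adjusted p = 0.0669). The call of the first remained under 6 of the 12 alternatives that kept it. It was lost when any array except interimplantation array 1 was left out (adjusted p between 0.0580 and 0.160), with the difference between −0.37 and −0.50 over all left-out arrays, and under the control scaling (−0.057, adjusted p = 0.802). Pias1, a SUMO ligase, was at −0.37 in its brightest probe set (adjusted p = 0.226), and Ptpn1, a tyrosine phosphatase, at 0.21 in one of its probe sets (adjusted p = 0.251).

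**Figure D3:**
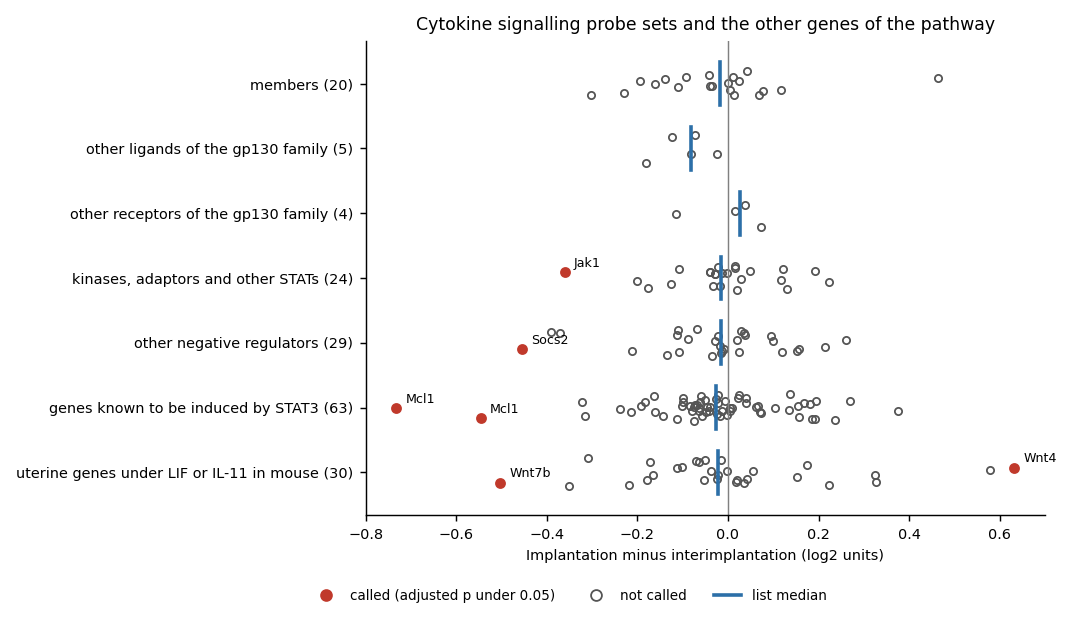
Implantation minus interimplantation difference in log2 units of every probe set of the cytokine genes (top row, "members") and of the 6 pathway lists, with the number of probe sets in brackets. Filled red points were called and carry the gene name, open points were not, and blue bars are list medians. None of the 20 points of the top row is filled, and the 6 called probe sets of the other rows belong to Jak1, Socs2, Mcl1, Wnt7b and Wnt4.

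Of the 63 probe sets of genes that STAT3 is known to induce, 2 were called (3.17%, beside 2.31% of all probe sets). Both were lower and both of Mcl1, which protects cells from apoptosis. Mcl1 1456381_x_at read 4.78, 5.03 and 4.97 at the implantation sites, against 5.39, 5.97 and 5.63 at the interimplantation sites. It fell by 0.73 on the log2 scale (SE 0.13, limma adjusted p = 0.0117), and 1456243_x_at fell by 0.55 (adjusted p = 0.0170). Both calls were lost with the arrays scaled to those controls (adjusted p = 0.190 and 0.515) and without implantation array 1 (adjusted p = 0.0839 and 0.0686) or 3 (adjusted p = 0.0544 and 0.0780), and the second also without implantation array 2 (adjusted p = 0.0828). With 1 array left out the differences stayed between −0.58 and −0.87 for the first and between −0.43 and −0.62 for the second. The other 4 Mcl1 probe sets were not called. One of them, 1437527_x_at, was at −0.32 (adjusted p = 0.145), and those without the suffix for shared probes were at −0.10, −0.05 and 0.0055.

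Other STAT3 targets were not called. Over the whole list of 63 probe sets, 7 (11.1%) had an unadjusted p under 0.05 (limma), beside 14.0% of all probe sets. Of these, 2 were higher and 5 lower. Ccnd1, cyclin D1 of the start of the cell cycle, was at 0.37 in its brightest probe set (limma adjusted p = 0.0636), with the groups apart, and at 0.27 and 0.0036 in the others. Myc, a transcription factor of growth, was at 0.24 (adjusted p = 0.182).

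**Figure D4:**
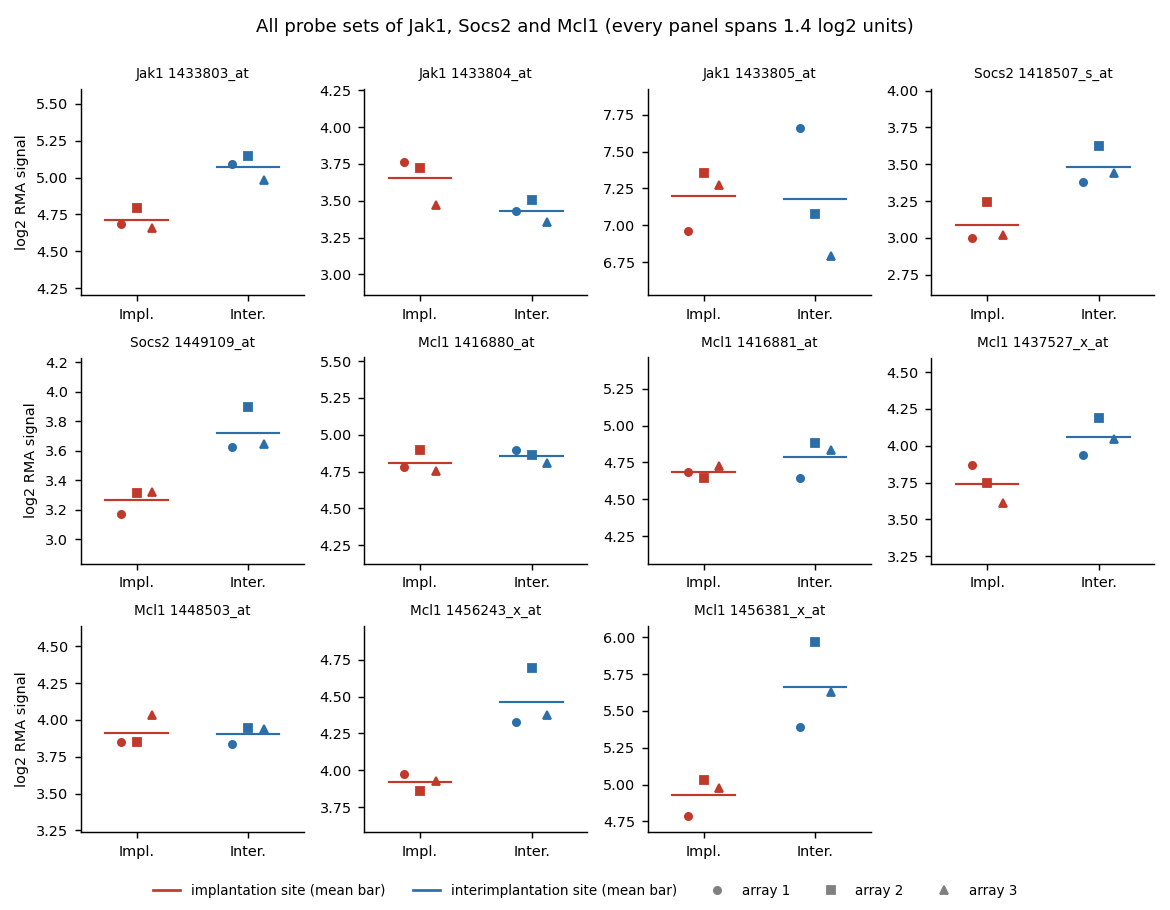
Log2 RMA signal of all probe sets of Jak1 (3), Socs2 (2) and Mcl1 (6) on the implantation arrays (red, left) and the interimplantation arrays (blue, right), with group means as bars. The groups are apart in both Socs2 panels, in 1 Jak1 panel and in the 3 Mcl1 panels whose names end in _x_at.

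In the list of uterine genes linked to LIF or IL-11 in the mouse, 2 of 30 probe sets were called, in opposite directions (6.67%, beside 2.31% of all). The list includes Pgr, Esr1, Foxa2 and Hand2, and not all of its genes are known to depend on either cytokine. Its counts are therefore no readout of LIF or IL-11. Wnt4, a ligand of decidualising stroma, rose in its single probe set (difference 0.63, limma adjusted p = 0.00633). That probe set read 6.08, 5.98 and 6.11 at the implantation sites, against 5.35, 5.64 and 5.29 at the interimplantation sites. It was called under all 12 alternatives that kept it. Its mean of 5.74 lay under the brightest Bacillus control (5.79), so the filter at that level left it out. Wnt7b, an epithelial ligand, fell by 0.50 in probe set 1420892_at (adjusted p = 0.0112), and its other probe set was at −0.31 (adjusted p = 0.0934). The Wnt7b call was lost without implantation array 1 (−0.43, adjusted p = 0.0768) and under the control scaling (adjusted p = 0.644). Hand2, a stromal transcription factor that progesterone induces, was at 0.58 (adjusted p = 0.0685).

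Each array holds the RNA of a whole segment of uterus, so fewer cells of a type and less RNA per cell cannot be told apart. Over 16 probe sets of 11 epithelial genes the mean log2 level ran from 5.00 to 5.07 at the implantation sites, against 5.21 to 5.33 at the interimplantation sites, and 3 probe sets, of Cldn3 and Cldn7, were called lower. The other 13 were not called. Among them Krt18, a keratin, was at −0.47 (limma adjusted p = 0.0866) and Foxa2, a transcription factor of uterine glands, at −0.10 with overlapping groups (adjusted p = 0.708). Epcam was at −0.013 and Krt19 at 0.00068. Smooth muscle markers (12 probe sets) ran from 5.11 to 5.28 at the implantation sites, against 5.57 to 5.77 at the interimplantation sites, and probe sets of Actg2, Tagln and Myh11 were called lower. Markers of stroma and decidua (19 probe sets) overlapped, at 6.36 to 6.46 at the implantation sites and 6.42 to 6.54 at the interimplantation sites. Of these, 1 probe set each of Pdgfra and Vim was called lower and none higher. At an unadjusted p under 0.05 (limma) 3 were higher and 4 lower, 36.8% of the list beside 14.0% of all probe sets. The higher ones were of Hand2 (0.58), Col1a1 (0.34) and Col1a2 (0.20), and the groups were apart in each. The lower ones were of Pdgfra (−0.70) and Vim (−0.40, −0.37 and −0.29), and the groups were apart in all but the last. The other probe sets of Col1a1 (0.15) and Col1a2 (−0.05) overlapped. Over the list 6 differences were positive and 13 negative. What part these cell types have in the values of the cytokine genes was not tested.

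No probe set of the lists for macrophages and myeloid cells (17 probe sets), neutrophils (8), T and NK cells (12), endothelium (11) or trophoblast and embryo (20) was called. The myeloid markers, which include cells that make and receive IL-6 and oncostatin M, had a mean level of 4.50 in both groups. The groups were apart in 2 of these 17 probe sets (11.8%, beside 19.3% of all), Cd68 at 0.38 and C1qa at −0.17. Of the 17, 4 exceeded the brightest Bacillus control. The trophoblast and embryo markers averaged 3.88 at the implantation sites (arrays from 3.87 to 3.89) and 3.93 at the interimplantation sites (3.90 to 3.99), without overlap. Of their 20 probe sets, 1 exceeded the brightest Bacillus control.

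The pattern of Lif 1421207_at over the 6 arrays was most like that of Wnt8a (r = 0.998), Ice1 (r = 0.990) and Cmah (r = 0.990), out of 20360 probe sets with a single symbol. With 6 arrays and so many probe sets these likenesses are only a description. The 3 probe sets had differences of −0.12, −0.22 and −0.28, and none was called.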

How the data were processed

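Per the submitters' processing notes, the authors used Partek 6.6 and RMA to make the deposited values, read here as log2 signals, 1 per probe set and array. No source used here states the log base, and the range of the values is that of RMA on a log2 scale. Folds depend on this. Of 22690 probe sets, 64 controls were left out. Symbols came from the platform annotation of the mouse array (20380 probe sets with 1 symbol, 691 with several, 1555 with none), and RefSeq lists 8 of the 10 member symbols for the hamster (assembly BCM_Maur_2.0). Only identical symbols were matched, and the 2 without a match were Il6ra and Il11ra1. This does not show that the hamster lacks these genes. Neither a genome nor probe sequences were used.

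Limma 3.58.1 under R 4.3.3 gave the comparison (lmFit, then eBayes, group as the only term, all 6 arrays, two-sided), with no filter on level and Benjamini-Hochberg adjustment over 22626 probe sets. All adjusted p-values in the text come from limma. The number of arrays limits the precision. The calculation was tested on simulated data with independent noise on each array, which checks the code and not the design.

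The members, lists and alternatives were chosen with earlier results of these data known. Text names every probe set of the members, every called gene of the pathway and marker lists, the 3 genes with the smallest p in each pathway list, and the 3 probe sets most like the member probe set with the smallest p. Some genes are also named outside this rule, with the results known. Among them are the uncalled marker genes Krt18, Krt19, Foxa2, Epcam, Col1a1, Col1a2, Cd68 and C1qa. Some genes stand in 2 lists. Alternatives were the replicate number as a block, trended and robust variance, array weights, repeated quantile normalization, scaling to 18 hybridisation control probe sets, a filter at the brightest Bacillus control, leaving out shared probe sets (suffixes _s_at, _x_at, _a_at), and leaving out each array.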

Additional observations from a re-analysis of the deposited data

How the results depend on the processing

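The count of 0 called among the 20 cytokine probe sets held under every alternative run but scaling to the hybridisation controls, which called 1. The 6 called probe sets of the pathway lists became 1 to 9 when an array was left out and 3 without shared probe sets. With the filter at the brightest Bacillus control they became 4, and Wnt7b was the only one of the 6 it kept. The labels do not pair the arrays, and the numbers were not taken as pairs. Same-numbered arrays of the 2 groups deviated from their group means with correlations of −0.090, 0.071 and −0.028, and differently numbered arrays gave −0.093 to 0.101. Deviations of 3 arrays from their own mean sum to 0, so these correlations are tied together. They cannot show which arrays share an animal, under the same or other numbers. With the replicate number as a block the calls numbered 0 of 20 and 6 of 154, and Jak1 was not called (adjusted p = 0.0596).

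Scaling to the hybridisation controls adds 0.40 to every difference, which turned 97.6% of all negative differences of the table positive. The 10 negative cytokine probe sets turned with them, as the size of the shift fixes: Lif 0.095, Lifr 0.35 and 0.20, Il6 0.36, Il6ra 0.24 and 0.17, Il6st 0.30 and 0.29, Osmr 0.36 and Socs3 0.26. Jak1 turned to 0.036. With array weights Il6st 1452843_at turned to −0.045 and Socs3 1456212_x_at to −0.011. Leaving out 1 array gave ranges across 0 for Lif 1450160_at (−0.012 to 0.12), Il6st 1452843_at (−0.12 to 0.099), Il11 (−0.088 to 0.15), Osmr 1418674_at (−0.11 to 0.050) and 1418675_at (−0.024 to 0.051), Stat3 1424272_at (−0.046 to 0.093) and 1426587_a_at (−0.0092 to 0.090), and Socs3 1456212_x_at (−0.098 to 0.11). The filter at the brightest Bacillus control left 3 of the 20 probe sets.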
